A study of Mus musculus with 13 samples.

Results

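Transcripts of microglia, the resident macrophages of the retina, and of the classical complement pathway were followed in whole retinas of Rpe65-/- and wild-type (WT) mice. The set holds 10 of the 29700 genes in the nuclear count table, chosen by name with earlier results of these data known: the complement genes C1qa, C1qb, C1qc, C4b and C3, the receptor genes Csf1r, Cx3cr1 and Trem2, and the marker genes Tmem119 and Aif1. All 10 were listed in the table and all 10 passed the filter on low counts. Bulk RNA sequencing was performed on 1 retina per mouse from 13 mice. Rpe65-/- mice carry a null allele of the retinoid isomerase of the pigment epithelium. They received TMB in standard chow from postnatal day 22 until collection on day 64 (n = 5) or the same chow without drugs as vehicle (n = 4). TMB joins 3 drugs: tamsulosin blocks alpha-1 adrenoceptors, metoprolol blocks beta-1 adrenoceptors, and bromocriptine activates dopamine D2-like receptors. All were given together, so effects of the single drugs cannot be told apart. The WT mice were C57BL/6J animals, 2 months of age (n = 4). The knockout line is labelled as C57BL/6J, but its exact background was not fully known to the study, and the WT mice were not described as littermates in the sources used here. Genotype and strain background cannot be told apart in comparisons with WT.

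Libraries are named by group, labelled sex (F or M) and number. They held 13512155 to 16449989 nuclear counts, and 3 counts, the most that a listed 0 could hide, corresponded to 0.182 to 0.222 counts-per-million (CPM). Floors and counting intervals cover counting error only. Rod transcripts were abundant in every library, with Gnat1, the rod transducin gene, at 10583 to 11881 CPM in TMB libraries, 10376 to 12163 CPM in vehicle libraries and 10581 to 14564 CPM in WT libraries. Rpe65 held 0 to 7 counts in TMB libraries and 1 to 8 counts in vehicle libraries, against 72 to 226 counts in WT libraries. By its label vehicle F2 came from a female, but it had 1 count of Xist and 1400 counts of the Y-linked gene Eif2s3y, unlike the other libraries labelled female. WT F4 stood apart from the other WT libraries. In WT F4, the 20% of genes richest in GC lay 0.28 above the mean of all libraries on the log2 scale, while the same genes lay 0.33 to 0.49 below it in WT M1, M2 and F3. Counts of calls and the C1q and C3 changes are given with and without one or both of these libraries.

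Complement is a cascade of plasma and tissue proteins that tags surfaces for removal. In the classical pathway, C1q, built from A, B and C chains encoded by C1qa, C1qb and C1qc, binds a target and leads to cleavage of C4 and then of C3, the central component whose fragments are recognised by phagocyte receptors. In nervous tissue C1q is made chiefly by microglia, whereas C3 and C4 can also be made by astrocytes and other glia, pigment epithelium and fibroblasts. CSF1R is the receptor for CSF1 and IL-34 on which microglia depend for survival, CX3CR1 is the receptor for the neuronal chemokine CX3CL1, and TREM2 is a lipid-sensing receptor that signals through the adaptor TYROBP. TMEM119 is a membrane protein used as a marker of resident microglia, and AIF1, also called IBA1, is a calcium-binding protein by which microglia are commonly stained.

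The C1q genes lie side by side on the minus strand of chromosome 4, between positions 136880129 and 136898803 of build GRCm38. The promoters of C1qb and C1qc, neighbours that varied together between libraries, and of C3, the gene with one of the widest spreads, are shown from RefSeq (GRCm38.p6), as 250 bases before and 50 bases after the start, on the strand of the gene. Such a promoter was found for 6 of the 10 genes. Capitals mark matches to GAGGAA, the core bound by the myeloid factor PU.1, in C1qb and C1qc (read as TTCCTC in C1qc, on the other strand), and to TTGCGNAA, a C/EBP motif, in C3.
C1qb, chr4:136886151-136886450, minus strand: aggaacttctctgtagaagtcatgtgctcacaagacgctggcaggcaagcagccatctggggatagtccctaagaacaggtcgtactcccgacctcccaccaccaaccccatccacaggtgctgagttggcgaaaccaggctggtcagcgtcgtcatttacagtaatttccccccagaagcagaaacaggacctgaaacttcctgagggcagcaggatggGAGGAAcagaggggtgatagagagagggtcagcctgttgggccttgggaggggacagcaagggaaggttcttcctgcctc
C1qc, chr4:136892865-136893164, minus strand: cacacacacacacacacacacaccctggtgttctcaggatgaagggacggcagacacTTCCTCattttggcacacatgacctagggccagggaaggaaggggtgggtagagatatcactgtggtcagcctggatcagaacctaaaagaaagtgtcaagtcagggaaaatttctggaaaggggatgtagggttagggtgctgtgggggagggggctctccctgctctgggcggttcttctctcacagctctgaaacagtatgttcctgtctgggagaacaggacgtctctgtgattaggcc
C3, chr17:57228087-57228386, minus strand: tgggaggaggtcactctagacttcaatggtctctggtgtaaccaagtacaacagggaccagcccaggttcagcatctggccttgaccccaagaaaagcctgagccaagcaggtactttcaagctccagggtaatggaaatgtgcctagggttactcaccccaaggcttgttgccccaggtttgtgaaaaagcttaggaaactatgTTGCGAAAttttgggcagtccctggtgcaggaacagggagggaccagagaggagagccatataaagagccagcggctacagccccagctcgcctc

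The match starts 30 bases before the start of C1qb, 193 bases before that of C1qc and 45 bases before that of C3. Both strands were searched, and the motifs do not contain one another. GAGGAA was also found in the promoters of Aif1 and Trem2, and it occurs in 28.3% of the 32817 mouse promoters of this length. TTGCGNAA occurs in 0.798% of them and was found in C3 alone among the 6. An interferon regulatory factor motif, a pair of GAAA with 2 free letters between, is held by 3.43% of promoters and was found in Aif1, and TTCNNNGAA, a STAT motif held by 8.29%, was found in none of the 6. A match describes the letters and not a bound site.

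All 10 transcripts were near or below the middle of the 16782 genes tested when counts were set per exon length. Averaged over the 13 libraries, C1qb, C4b and C1qa reached 4.90, 4.61 and 4.43 CPM per kb of exon, placing them at percentiles 50.5, 49.1 and 48.1 of tested genes. Csf1r, C1qc, Cx3cr1 and C3 followed at 2.37, 1.92, 1.29 and 1.11 CPM per kb, and Tmem119, Aif1 and Trem2 lay lowest at 0.731, 0.377 and 0.336 CPM per kb. Trem2 was represented by 5 to 42 counts per library, Tmem119 by 6 to 50 and Aif1 by 3 to 15. The spread within groups exceeded what counting alone would give for most transcripts. The coefficient of variation was over 2 times the counting value (1 over the square root of the mean count) in 16 of 30 combinations of gene and group and below it in 3. C4b was the most variable in these terms, with a coefficient of variation of 33.2% in TMB, 36.5% in vehicle and 66.6% in WT libraries, against counting values of 4.84%, 4.21% and 7.54%.

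**Figure D1:**
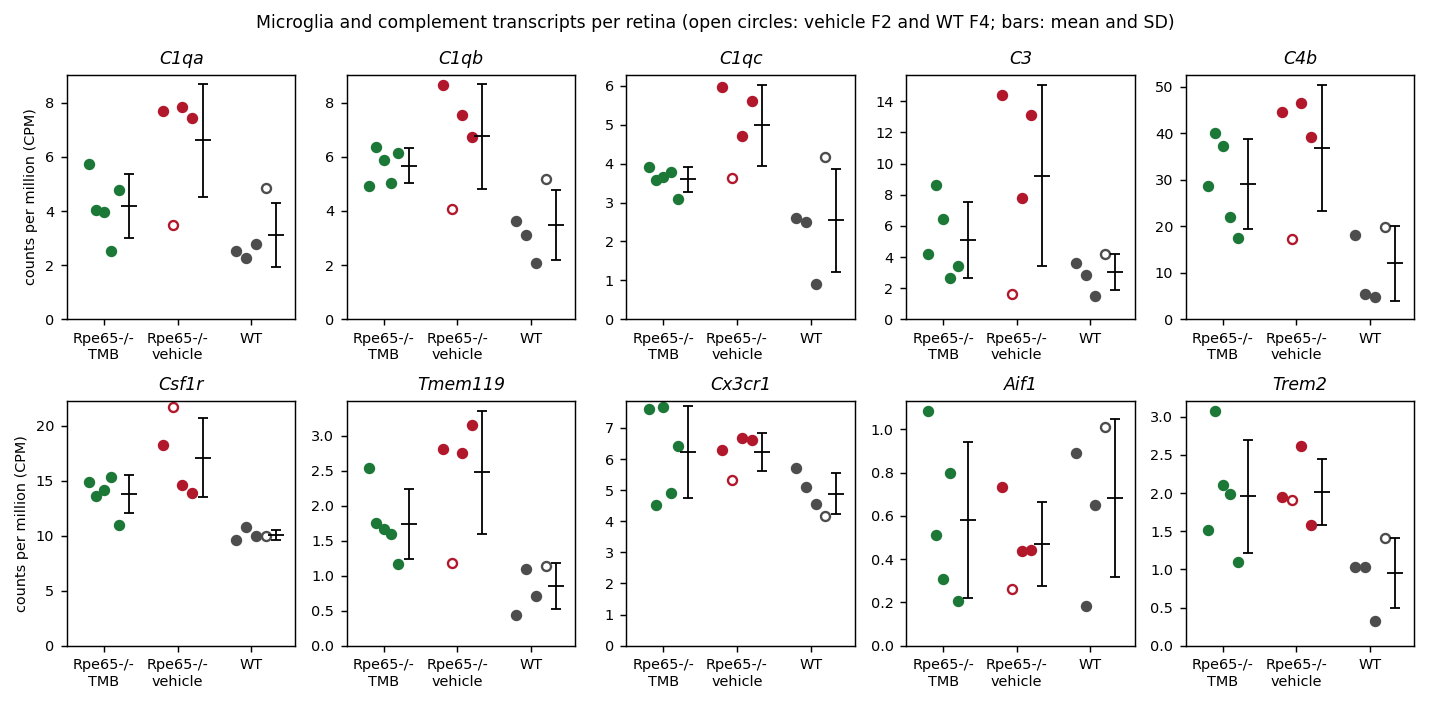
CPM of each of the 10 transcripts (vertical axis from 0) in every library of Rpe65-/- TMB, Rpe65-/- vehicle and WT retina. Bars give mean and SD, and open circles mark vehicle F2, the lowest vehicle library for 8 of the 10, and WT F4, the highest WT library for 8 of the 10.

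Vehicle and WT retinas were compared first, to ask which of these transcripts differ in the untreated knockout. Complement transcripts and 2 of the microglia transcripts, Csf1r and Tmem119, were higher in vehicle, and none of the 10 was called lower. Of the 10 genes, 7 passed an adjusted p of 0.05 and all 7 were higher, where 15.7% of the 16782 genes tested were called higher and 33.9% were called in either direction (edgeR quasi-likelihood test, Benjamini-Hochberg adjusted over all genes). The median log2 change of the 10 was 0.93 and that of all tested genes 0.02. In these bulk samples, a change in the number of cells of a type and a change in RNA per cell cannot be told apart.

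The 3 chains of C1q were each called higher in vehicle with all libraries, and none of them was called once the trend with GC content was removed from each library. C1qa stood at 7.68, 3.49, 7.83 and 7.44 CPM in vehicle F1, F2, M4 and M5, against 2.52, 2.25, 2.80 and 4.84 CPM in WT M1, M2, F3 and F4. Every vehicle library but F2 exceeded every WT library, and F2 fell below WT F4. The log2 change was 0.996 ± 0.30 (SE, edgeR adjusted p = 0.0220). C1qb had 8.65, 4.08, 7.54 and 6.75 CPM in the vehicle libraries in the same order, against 3.63, 3.10, 2.08 and 5.18 CPM in WT libraries, and again the groups overlapped only through vehicle F2 and WT F4. Its log2 change was 0.86 ± 0.25 (edgeR adjusted p = 0.0191). C1qc had 5.97, 3.62, 4.72 and 5.61 CPM in vehicle libraries, against 2.59, 2.49, 0.911 and 4.17 CPM in WT libraries. C1qc thus changed by 0.88 ± 0.30 on the log2 scale (edgeR adjusted p = 0.0353). Without vehicle F2 and WT F4 the log2 changes were 1.497 ± 0.24 for C1qa, 1.28 ± 0.20 for C1qb and 1.35 ± 0.27 for C1qc (edgeR adjusted p of 0.000621 or less). With the GC trend removed and all libraries kept they were 0.48 ± 0.26 (edgeR adjusted p = 0.209), 0.45 ± 0.18 (edgeR adjusted p = 0.0984) and 0.49 ± 0.23 (edgeR adjusted p = 0.152) in the same order. Summed over the 3 chains, C1q averaged 18.4 ± 4.90 CPM in vehicle and 9.14 ± 3.59 CPM in WT libraries (SD, n = 4 each). The make-up of this sum was alike in the groups, with C1qa, C1qb and C1qc providing 35.5 ± 3.48%, 36.7 ± 2.00% and 27.7 ± 3.69% of C1q counts in vehicle and 35.0 ± 9.24%, 38.4 ± 2.62% and 26.6 ± 7.35% in WT libraries.

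Downstream of C1q, C4b and C3 had the largest changes among the 10. C4b, which encodes complement component C4, had 44.6, 17.2, 46.4 and 39.2 CPM in vehicle F1, F2, M4 and M5, against 18.1, 5.53, 4.75 and 19.9 CPM in WT M1, M2, F3 and F4. The WT libraries fell into a higher and a lower pair, and vehicle F2 lay within the WT range. The log2 change was 1.52 ± 0.43 (edgeR adjusted p = 0.0163). Mouse C4b has a near copy, C4a, and 35.2% of the 50-base stretches in C4b exons also occur in C4a. Reads from these stretches could be lost or assigned to either gene. C4a averaged 3.45 ± 0.651 CPM in vehicle and 2.14 ± 0.606 CPM in WT libraries (SD, n = 4 each), and its log2 difference of 0.60 ± 0.23 missed the threshold (edgeR adjusted p = 0.0599). C3 had 14.4, 1.65, 7.76 and 13.1 CPM in vehicle libraries, against 3.63, 2.86, 1.497 and 4.17 CPM in WT libraries. Vehicle F2 was thus lower than 3 of the 4 WT libraries, while the other vehicle libraries were higher than all of them, and the log2 change was 1.51 ± 0.51 (edgeR adjusted p = 0.0338). Without vehicle F2 the C3 change was 1.86 ± 0.38 (edgeR adjusted p = 0.00552).

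Among the receptors, Csf1r had the smallest adjusted p of the set. It stood at 18.2, 21.7, 14.6 and 13.9 CPM in vehicle libraries, against 9.62, 10.8, 10.02 and 9.96 CPM in WT libraries. The groups did not overlap, WT libraries varied by 4.75% (coefficient of variation), and vehicle F2 was here the highest of its group. The log2 change was 0.67 ± 0.15 (edgeR adjusted p = 0.00630). The 3′ end of Csf1r overlaps Hmgxb3 on the opposite strand, and 17.7% of the 50-base stretches of Csf1r are shared with it. The sources used here do not say whether counting used strand, so reads of the 2 genes may not be separable in the overlap. Hmgxb3 was itself called higher, at 42.8 to 47.6 CPM in vehicle and 28.7 to 39.2 CPM in WT libraries (log2 change 0.37 ± 0.11, edgeR adjusted p = 0.0191), and its part in the Csf1r result was not tested. Cx3cr1 had 6.28, 5.34, 6.67 and 6.62 CPM in vehicle and 5.70, 5.11, 4.56 and 4.17 CPM in WT libraries, a log2 difference of 0.26 ± 0.19 that was within the spread (edgeR adjusted p = 0.278). Trem2 had 1.95, 1.91, 2.61 and 1.58 CPM in vehicle and 1.04, 1.03, 0.325 and 1.41 CPM in WT libraries. Its groups did not overlap, and its log2 difference of 0.98 ± 0.37 just missed the threshold in edgeR (adjusted p = 0.0525) and passed in DESeq2 (adjusted p = 0.0420).

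The 2 markers behaved differently from each other. Tmem119 had 2.80, 1.19, 2.76 and 3.15 CPM in vehicle libraries, against 0.444, 1.09, 0.716 and 1.14 CPM in WT libraries, and every vehicle library was higher than every WT library, although vehicle F2 and WT F4 held 18 and 17 counts. The log2 change was 1.43 ± 0.35 (edgeR adjusted p = 0.00924). Aif1 had 0.731, 0.264, 0.435 and 0.441 CPM in vehicle libraries and 0.888, 0.182, 0.651 and 1.01 CPM in WT libraries. These rest on 4 to 12 and 3 to 15 counts. The 95% Poisson interval was 0.0376 to 0.533 CPM for WT M2, 0.0718 to 0.675 CPM for vehicle F2 and 0.565 to 1.66 CPM for WT F4. The log2 difference of -0.60 ± 0.55 (edgeR adjusted p = 0.397) was not detectable at this depth. Among all tested genes, 14.1% had every vehicle library higher than every WT library, and among the 10 this held for Csf1r, Tmem119 and Trem2.

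**Figure D2:**
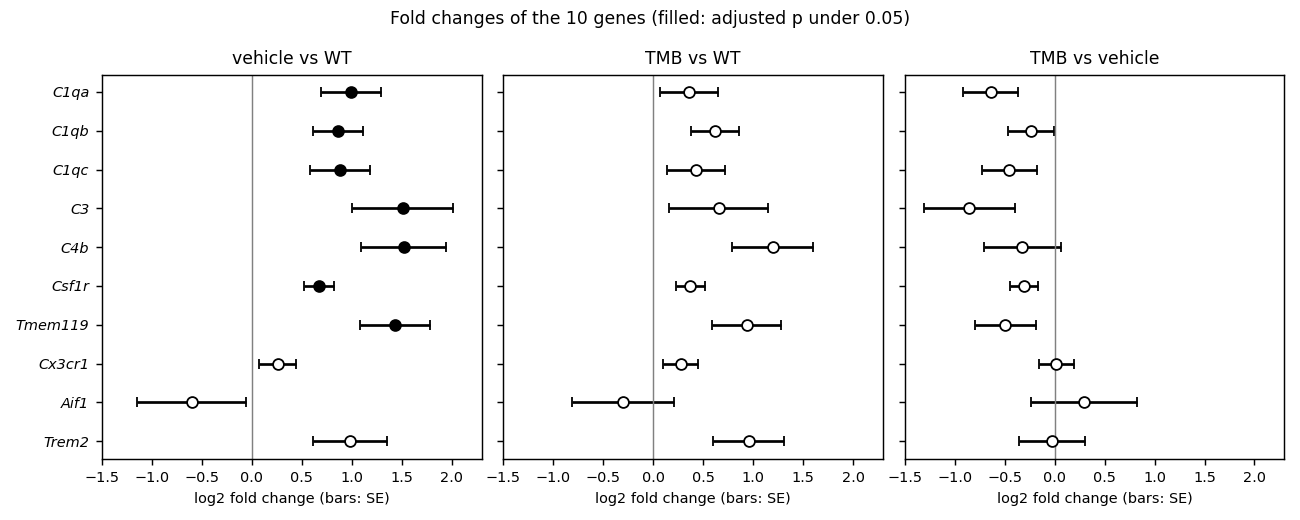
Log2 fold changes (horizontal axis) with SE for the 10 genes in the 3 comparisons, filled where the edgeR adjusted p was under 0.05. In vehicle vs WT 7 points are filled and 9 lie above 0; no point is filled in TMB vs WT or TMB vs vehicle, where 8 of the 10 lie below 0.

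The count of 7 depended on the libraries used. Without WT M1, M2 or F3 it was 4, 2 and 3, while 2967, 3066 and 2849 of all genes were called in either direction. Without vehicle F1, M4 or M5 it was 3, 5 and 4, while 3152, 4322 and 3389 of all genes were called. With all libraries 5697 of all genes were called. Without WT F4 the count was 8 (background 28.5% called higher). All 9 positive log2 changes stayed above 0 in each of these fits. The 10 genes are GC-rich, with a median transcript GC content of 54.9% against 49.2% over tested genes, and the 20% of genes richest in GC lay 0.12 to 0.33 above the mean of all libraries in vehicle (log2 scale), on the same side as WT F4 and opposite to the other WT libraries. When the trend with GC content was removed from each library, 1 of the 10 was called, C4b at 1.23 ± 0.35 (edgeR adjusted p = 0.0214, background 7.78% called higher), and the median log2 change of the 10 was 0.48.

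TMB and WT retinas were compared next. The WT libraries are the same as in the comparison above, so the 2 sets of values are not independent. No complement or microglia transcript of the set was called in TMB, against a background of 9.53% of genes called (DESeq2 also called 0 of the set). An unadjusted p under 0.05 in edgeR was found for 5 of the 10 and for 4353 of the 16782 genes tested. The log2 differences from WT were smaller than those of vehicle for most genes, with a median of 0.52 over the 10 and a median of 0.00 over all genes. C1qa had 5.72, 4.02, 3.96, 2.52 and 4.79 CPM in TMB F1, F3, F4, M5 and M6, F1 above the WT range given above and the other 4 within it, and a log2 difference of 0.36 ± 0.29 (edgeR adjusted p = 0.463). C1qb had 4.92, 6.36, 5.87, 5.04 and 6.15 CPM in TMB libraries, above WT M1, M2 and F3 in every case but not always above WT F4 (0.62 ± 0.24, edgeR adjusted p = 0.118). C1qc varied least in this group, at 3.91, 3.58, 3.65, 3.78 and 3.08 CPM (0.43 ± 0.29, edgeR adjusted p = 0.372). Summed C1q was 13.5 ± 1.25 CPM in TMB libraries (SD, n = 5), and its chains provided 30.8 ± 6.39%, 42.3 ± 4.77% and 27.0 ± 4.11% of C1q counts for C1qa, C1qb and C1qc.

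C4b came closest to the threshold in TMB. It had 28.7, 40.1, 37.3, 21.9 and 17.6 CPM in TMB F1, F3, F4, M5 and M6, where 4 of the 5 libraries exceeded every WT library, and a log2 difference of 1.20 ± 0.41 from WT (edgeR adjusted p = 0.0791). C3 had 4.20, 8.63, 6.43, 2.65 and 3.42 CPM in TMB libraries, with F1, F3 and F4 above every WT library and M5 and M6 within the WT range (0.66 ± 0.50, edgeR adjusted p = 0.421). Csf1r had 14.9, 13.6, 14.2, 15.3 and 10.9 CPM, all above the 4 WT libraries though M6 only just so (0.37 ± 0.15, edgeR adjusted p = 0.122). Tmem119 had 2.53, 1.75, 1.67, 1.59 and 1.16 CPM and likewise did not overlap with WT (0.94 ± 0.34, edgeR adjusted p = 0.100). Non-overlap of this kind, TMB above WT, was found for 8.26% of tested genes. Trem2, at 1.52, 3.07, 2.10, 1.99 and 1.09 CPM, had a log2 difference of 0.95 ± 0.36 (edgeR adjusted p = 0.108), close to its value in vehicle. Cx3cr1 had 7.60, 4.53, 7.66, 4.91 and 6.43 CPM (0.28 ± 0.18, edgeR adjusted p = 0.344), and Aif1 had 1.09, 0.512, 0.309, 0.796 and 0.205 CPM (-0.30 ± 0.51, edgeR adjusted p = 0.730). Without WT F4, 5 of the 10 were called higher in TMB than in WT (C4b, C1qb, Trem2, Tmem119 and C1qc), where the background was 19.6% of genes called higher. With the GC trend removed C4b alone was called (1.08 ± 0.34, edgeR adjusted p = 0.0376).

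TMB was then compared with vehicle within the knockout, the comparison that addresses the treatment. No gene of the set was called, and neither was any other gene (0% of 16782 in edgeR, where 3064 had an unadjusted p under 0.05, and 58 in DESeq2). Of the 10, 8 had lower estimates in TMB, with a median log2 difference of -0.31 against 0.00 over all genes, and 2 had an unadjusted p under 0.05, C1qa and Csf1r. The largest differences were those of C3 (-0.85 ± 0.46, edgeR adjusted p = 0.307) and C1qa (-0.64 ± 0.28, edgeR adjusted p = 0.260). They were followed by Tmem119 (-0.49 ± 0.31, edgeR adjusted p = 0.359), C1qc (-0.46 ± 0.28, edgeR adjusted p = 0.348), C4b (-0.33 ± 0.39, edgeR adjusted p = 0.630), Csf1r (-0.30 ± 0.14, edgeR adjusted p = 0.272) and C1qb (-0.24 ± 0.23, edgeR adjusted p = 0.543). Trem2 (-0.03 ± 0.33) and Cx3cr1 (0.01 ± 0.17) were near 0, and Aif1 was at 0.30 ± 0.53. No gene of the set had every TMB library above, or below, every vehicle library. Among tested genes 7.18% had every TMB library above, and the share with every TMB library below was not counted. TMB libraries lay nearer to one another than vehicle libraries did for C1qb (coefficient of variation 11.5% in TMB and 28.8% in vehicle) and C1qc (8.83% in TMB and 21.05% in vehicle), without a test of that difference. Vehicle F2 was the lowest vehicle library for both. The order was reversed for Cx3cr1 (23.5% in TMB and 9.95% in vehicle), Trem2 (37.9% in TMB and 21.5% in vehicle) and Aif1 (62.1% in TMB and 41.5% in vehicle). The calls depended on which libraries entered the shared fit, WT F4 among them although it is in neither group. Without WT F4 and vehicle F2, C1qa (-0.84 ± 0.20, edgeR adjusted p = 0.0109) and C3 (-1.20 ± 0.31, edgeR adjusted p = 0.0156) were called lower in TMB. In that fit 20.2% of all genes were called in either direction. Without vehicle F2 alone neither passed (edgeR adjusted p = 0.246 for both), and 0 of all genes were called. Without WT F4 alone neither passed (edgeR adjusted p = 0.0684 for C1qa and 0.175 for C3), while 2741 of all genes were called. A fit of only the 2 groups called 0 of the 10 and 2402 of all genes. The reason was not tested.

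**Figure D3:**
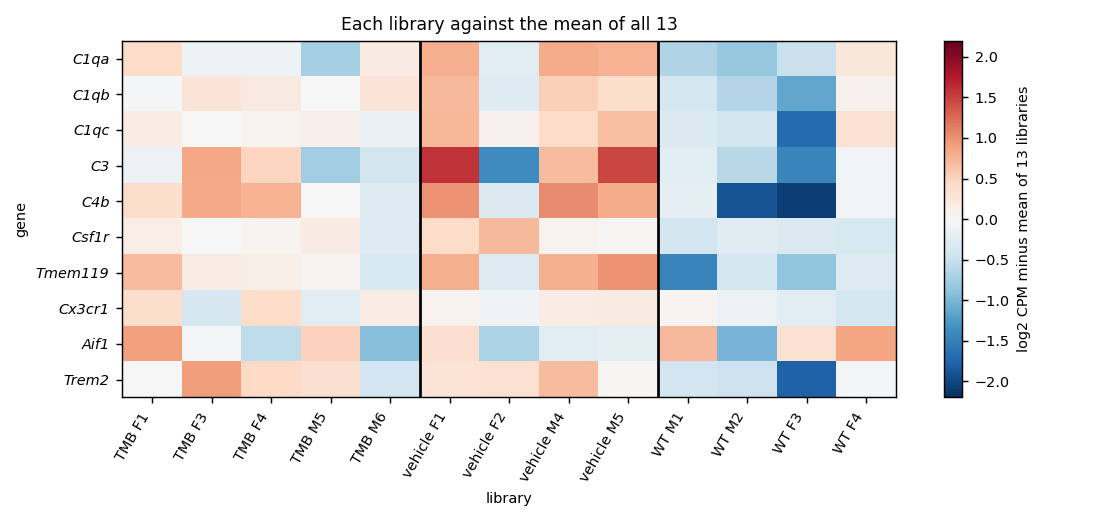
Log2 CPM of each gene in each library minus its mean over the 13 libraries (colour scale). C1qa, C1qb, C1qc, C3, C4b and Tmem119 are mostly above the mean in vehicle F1, M4 and M5 and below it in WT F3, whereas Csf1r is highest in vehicle F2 and Aif1 follows no group.

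How the 10 transcripts varied among themselves was described with log2 values taken as deviations from the group means, over 13 libraries that share depth and base composition as sources of variation. The mean deviation of the 10 was lowest in vehicle F2 (-0.59), WT F3 (-0.49) and TMB M6 (-0.31) and highest in WT F4 (0.52) and vehicle F1 (0.31). C1qb and C1qc had the closest pair of profiles (Pearson r = 0.81). Csf1r stood apart. Its 9 pairs with the other genes had a median r of -0.23 and 7 were below 0, down to -0.57 with C1qa, while the 36 pairs without it had a median of 0.39 and 2 were below 0. The genes outside the set whose profile was most like the mean of the 10 were Ifitm3 (r = 0.96), Dkk3, Med4, Chrm1, Ppp1r1b, Slc39a1, Tsc22d1, Col5a1, Hes1 and Cenpx (r = 0.92).

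Other genes of the same systems were read from lists, without a test between lists. Of 5 defining microglia transcripts (P2ry12, Siglech, Tyrobp, Ctss and Fcrls), 0 were called in vehicle vs WT, with log2 differences of -0.02 to 0.43 and adjusted p values of 0.212 to 0.974 (edgeR). They summed to 21.6 to 30.5 CPM in vehicle libraries and 17.8 to 25.4 CPM in WT libraries, which overlapped. In TMB vs WT none of the 5 was called either (log2 differences of -0.23 to 0.65), at a summed level of 23.3 to 28.7 CPM in TMB libraries. In a wider list of 27 tested microglia genes, 4 were called higher and 2 lower in vehicle (list median 0.30), a share no larger than the 15.7% of all genes called higher and the 33.9% called in either direction. The count of 6 called was 1 without WT M2 or F3, 2 without vehicle F1 or M5, 3 without vehicle M4 and 10 without WT F4. The macrophage perforin-like gene Mpeg1 rose by 0.63 ± 0.15 (edgeR adjusted p = 0.00886), the selectin ligand gene Selplg by 1.09 ± 0.36 (edgeR adjusted p = 0.0308) and Cyth4 by 0.87 ± 0.29 (edgeR adjusted p = 0.0313), while the transcription factor gene Runx1 fell by 1.37 on the log2 scale (edgeR adjusted p = 0.0213). In TMB vs WT 0 of the 27 were called by edgeR, with a median of 0.21, against 1 without WT M1 and 4 without WT F4.

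Of 24 other complement genes that could be tested, 2 were called higher and 2 lower in vehicle, with a median log2 change of 0.15. This share was below the 15.7% of all genes called higher and the 33.9% called in either direction, and the count of 4 was 4 to 8 with single libraries left out (8 without WT F4). Properdin, Cfp, which stabilises the alternative pathway convertase, rose to 14.2 CPM in vehicle, against 9.14 CPM in WT (log2 change 0.55 ± 0.14, edgeR adjusted p = 0.0124). The neuronal gene Sez6, whose protein carries complement control domains, was higher by 0.82 ± 0.17 (edgeR adjusted p = 0.00399). The 2 genes that fell encode inhibitors. Cd59a, an inhibitor of the membrane attack complex, averaged 38.2 CPM in vehicle and 69.4 CPM in WT libraries (log2 change -0.94 ± 0.25, edgeR adjusted p = 0.0129), and Csmd1, a neuronal complement inhibitor, averaged 9.52 CPM in vehicle and 15.2 CPM in WT libraries (-0.76 ± 0.19, edgeR adjusted p = 0.00939). Both were also called lower in TMB than in WT (Cd59a -0.88 ± 0.23, edgeR adjusted p = 0.0279; Csmd1 -0.74 ± 0.18, edgeR adjusted p = 0.0155), and 0 of the 24 were called higher there. The count of 2 in TMB vs WT was 0 without WT M1, 1 without WT M2, WT F3, TMB F3 or TMB M5, 2 or 3 without the other TMB or vehicle libraries, and 6 without WT F4.

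Of the 10 ligands and partners of the receptors, 3 were called higher in vehicle, where 15.7% of all genes were, and 0 in TMB vs WT. The count of 3 was 0 without WT M2, WT F3 or vehicle F1, 1 without WT M1 or vehicle M5, 6 without WT F4 and 0 with the GC trend removed; in TMB vs WT it was 5 without WT F4. With all libraries, Csf1 averaged 7.64 CPM in vehicle and 4.98 CPM in WT libraries (0.53 ± 0.16, edgeR adjusted p = 0.0209), Il34 averaged 8.59 CPM in vehicle and 5.06 CPM in WT libraries (0.67 ± 0.20, edgeR adjusted p = 0.0225), and Apoe, a lipid carrier that binds TREM2, averaged 644 CPM in vehicle and 330 CPM in WT libraries (0.87 ± 0.28, edgeR adjusted p = 0.0287). Cx3cl1, the ligand of CX3CR1, was at 105 CPM in vehicle and 73.1 CPM in WT libraries (0.43 ± 0.17, edgeR adjusted p = 0.0573), and Tyrobp, the adaptor of TREM2, at 1.89 CPM in vehicle and 1.32 CPM in WT libraries (0.43 ± 0.38, edgeR adjusted p = 0.381). Genes known to be induced in microglia around damage were called in both directions in vehicle, 4 higher and 3 lower of 15 tested. Over all genes 15.7% were called higher and 33.9% in either direction. The count of 7 was 3 to 9 with single libraries left out (3 without WT M2, WT F3 or vehicle F1, 4 without vehicle M5 and 9 without WT F4). Csf1 was among those called higher, and Spp1 (-1.20 ± 0.12, edgeR adjusted p = 9.75e-06), Igf1 (-0.64 ± 0.14, edgeR adjusted p = 0.00539) and Lpl (-0.58 ± 0.13, edgeR adjusted p = 0.00654) were the genes called lower. Spp1 is also expressed by retinal ganglion cells. In TMB vs WT, Spp1 (-0.83 ± 0.11, edgeR adjusted p = 0.000168) and Igf1 (-0.44 ± 0.13, edgeR adjusted p = 0.0453) were called lower and 0 were called higher, where 9.53% of all genes were called. This count of 2 was 1 without most single libraries and 5 without WT F4.

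**Figure D4:**
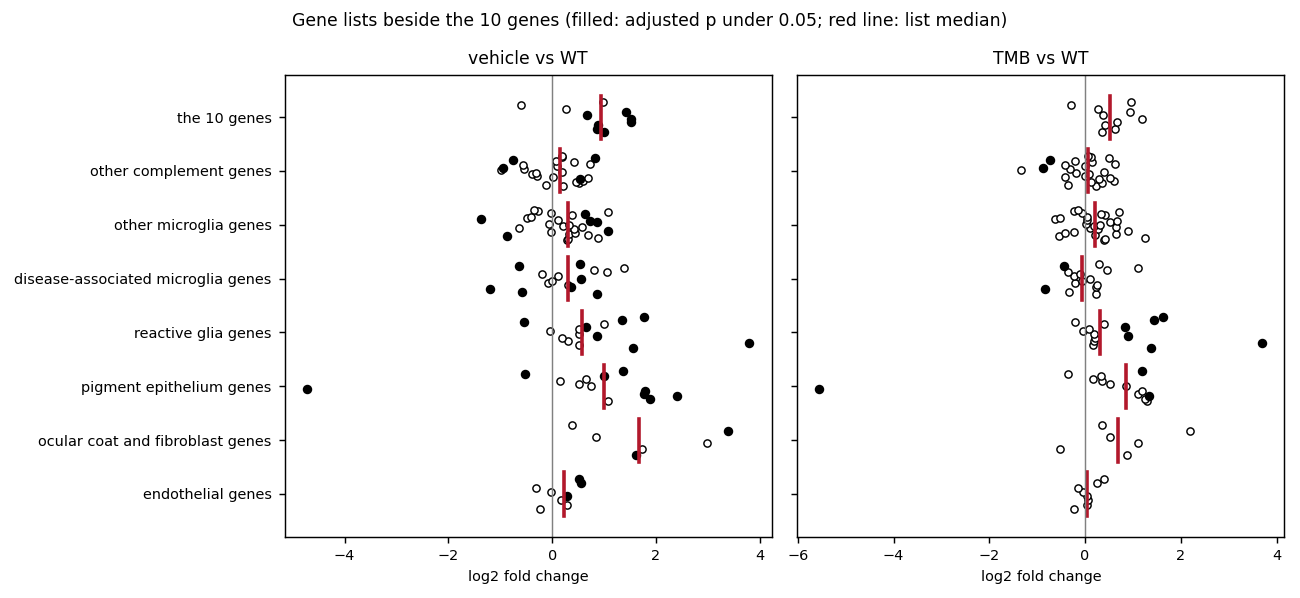
Log2 fold changes (horizontal axis) of the 10 genes and of 7 other lists in vehicle vs WT and TMB vs WT, filled where the edgeR adjusted p was under 0.05, with the list median in red. The median of the 10 genes, 0.93 in vehicle vs WT, lies above that of the other complement genes (0.15) and other microglia genes (0.30); the pigment epithelium point far left of 0 is Rpe65 itself.

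Markers of other cells were read beside these results. Over all genes, 15.7% were called higher and 33.9% in either direction in vehicle vs WT, and 9.53% in TMB vs WT. Blood leukocyte genes were at the limit of detection, with 0 of 9 passing the filter and summed levels of 0.439 to 1.45 CPM in TMB, 0.461 to 0.975 CPM in vehicle and 0.260 to 1.48 CPM in WT libraries; Ncr1 and Nkg7 were at 0 in every TMB and every vehicle library. Perivascular macrophage and monocyte genes summed to 18.9 to 27.7 CPM in TMB, 23.5 to 25.1 CPM in vehicle and 20.9 to 24.2 CPM in WT libraries, and 1 of 3 tested was called in vehicle vs WT, Stab1 (1.11 ± 0.40, edgeR adjusted p = 0.0437). Erythrocyte genes summed to 5.63 to 9.71 CPM in TMB, 7.95 to 14.8 CPM in vehicle and 9.96 to 20.8 CPM in WT libraries. Of 4 tested, 0 were called in vehicle vs WT and 2 were called lower in TMB vs WT. These were Hbb-bs (-1.09 ± 0.26, edgeR adjusted p = 0.0143) and Hba-a1 (-1.49 ± 0.36, edgeR adjusted p = 0.0164), and this count was 0 to 2 with single libraries left out. Genes of the ocular coats and fibroblasts moved with the complement transcripts across libraries in their sum, but not each by itself. Their sum was 63.1 to 142 CPM in TMB libraries, 167, 59.4, 198 and 203 CPM in vehicle F1, F2, M4 and M5, and 74.1, 42.8, 35.3 and 92.8 CPM in WT M1, M2, F3 and F4, with vehicle F2 lowest and WT F4 highest as for C4b and the C1q genes. Fbln1 (3.23 CPM) and Col6a3 (12.9 CPM) were lowest of the vehicle libraries in F2. Col1a1 (4.87 CPM), Col3a1 (7.84 CPM) and Dcn (10.8 CPM) were highest there. Of 6 tested, Col1a1 (1.61 ± 0.47, edgeR adjusted p = 0.0198) and Col6a3 (3.40 ± 1.22, edgeR adjusted p = 0.0438) were called higher in vehicle, and none was at 0 throughout a group. Pigment epithelium genes summed to 203 to 368 CPM in TMB libraries, 325, 637, 172 and 176 CPM in vehicle libraries and 153 to 239 CPM in WT libraries, with 6 of 13 called higher and 2 lower in vehicle. Those called lower were Rpe65 itself and Enpp2 (-0.52 ± 0.15, edgeR adjusted p = 0.0169), and among those called higher were Slc16a8 (2.40 ± 0.41, edgeR adjusted p = 0.00127), Rdh5 (1.76 ± 0.37, edgeR adjusted p = 0.00457) and Ttr (1.88 ± 0.43, edgeR adjusted p = 0.00659). In TMB vs WT 2 of the 13 were called higher and 1, Rpe65, lower, a count of 3 that was 1 to 8 with single libraries left out (1 without WT M1, TMB F3 or TMB F4, 6 without vehicle F2 and 8 without WT F4). Here vehicle F2 was the highest library, as it was for Csf1r. The part of these other cells in the complement and Csf1r results was not tested. Of 8 endothelial genes, 3 were called higher in vehicle (Esam, Kdr and Vwf, 0.28 to 0.55) and 0 in TMB vs WT. The vehicle counts for ocular coat, endothelial and perivascular genes, 2, 3 and 1 with all libraries, were 0 to 3, 1 to 5 and 0 to 1 with single libraries left out. For ocular coat genes the count was 0 without WT M1 or F3 and 1 without WT M2, TMB F4 or TMB M5, and for endothelial genes it was 1 without WT M2, WT F3 or vehicle F1 and 5 without WT F4.

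Genes listed for reactive glia were called in both knockout groups. Which cells held these transcripts, Edn2 included, cannot be told from bulk RNA. Of 14 reactive glia genes tested, 6 were called higher and 0 lower in TMB than in WT, where 9.53% of all genes were called, and 6 were called higher and 1, Fgf2 (-0.55 ± 0.20, edgeR adjusted p = 0.0453), lower in vehicle than in WT, where 33.9% were. Those called higher in both included Stat3 (0.89 ± 0.09 in TMB and 0.86 ± 0.09 in vehicle), Edn2 (3.70 ± 0.40 in TMB and 3.80 ± 0.41 in vehicle), Gfap (1.37 ± 0.23 in TMB and 1.56 ± 0.23 in vehicle) and Osmr (0.83 ± 0.12 in TMB and 0.65 ± 0.12 in vehicle), each with an edgeR adjusted p of 0.00267 or less. With single libraries left out, 5 to 7 of the 14 were called in TMB vs WT and 5 to 10 in vehicle vs WT.

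**Figure D5:**
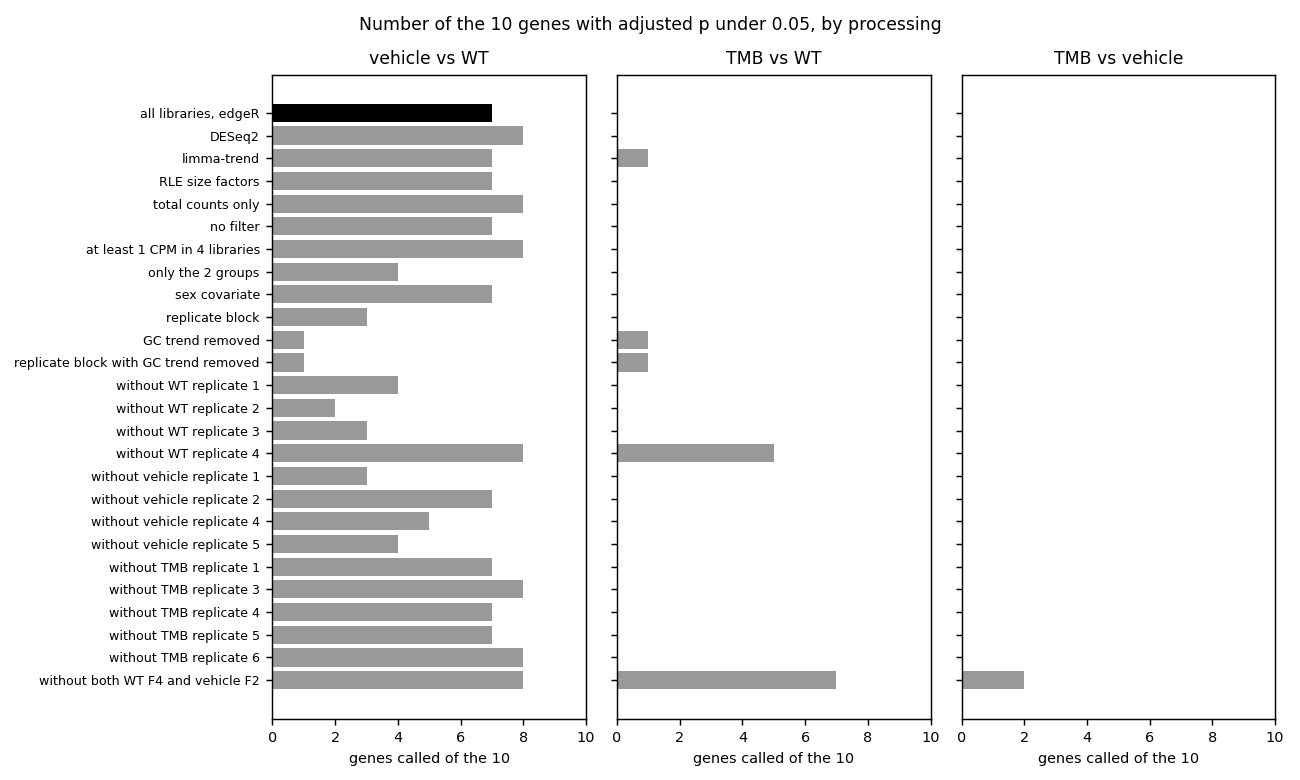
Number of the 10 genes with an adjusted p under 0.05 (horizontal axis) under each way of processing the counts. In vehicle vs WT the number ranged from 1 with the GC trend removed to 8; in TMB vs WT it was 5 without WT replicate 4 (WT F4) and 7 without WT F4 and vehicle F2; in TMB vs vehicle it was 0 in all but the last, where it was 2.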

How the data were processed

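RNA was extracted from 1 retina per mouse. Per the labels and the methods of the study, the authors checked reads with FastQC, trimmed them with Trimmomatic, aligned them with STAR to GRCm38 and counted them per gene with HTSeq; their strand setting is not stated in those sources. The authors deposited raw counts in a table of 29700 nuclear genes and another of 16 mitochondrial genes; 4 WT columns are listed a second time there with identical values. Deposited log2 fold changes and adjusted p-values of each knockout group against WT, from the authors' DESeq2 fits, were not used, nor was a table of selected genes. The design text speaks of 3 WT mice, whereas labels and tables hold 4, and a deposited sample sheet that was not used leaves out WT M1; all 4 were used. That sheet also lists vehicle F1 as C57BL/6J, but its Rpe65 counts are at the knockout level.

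CPM is the raw count divided by the nuclear total of the library, in counts-per-million. Counts of all 13 libraries were fitted in 1 model with edgeR 4.0.16 (R 4.3.3; TMM, filterByExpr by group, quasi-likelihood F test, no covariate), p values were Benjamini-Hochberg adjusted over 16782 genes, and genes were called at 0.05. The SE is the log2 change over the square root of F. The test was run on simulated counts with the same spread for every gene, no GC trend and no library that stood apart. That check therefore does not cover these features of the data. Replicates were separate mice. Alternatives were DESeq2 1.42.0, limma-trend (limma 3.58.1, prior count 2), other scalings and filters, 2 groups only, sex, a replicate block, a cubic GC trend removed per library (GC of the longest GENCODE M21 transcript), each library left out, and WT F4 and vehicle F2 left out together. Vehicle F2 and WT F4 were known to stand apart when these alternatives were chosen. The sex alternative used the labels, so vehicle F2 entered it as female despite its Xist and Eif2s3y counts. By those counts vehicle F1 alone was female in vehicle, against F1, F3 and F4 in TMB. Sex was thus not balanced between these groups, no fit used sex by these counts, and its part in the results was not tested.

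The 10 genes, the 11 other lists and the tests were chosen with earlier results of these data known. Named from each other list were up to 4 called genes per comparison with the smallest adjusted p, besides Csf1, Il34, Cx3cl1, Tyrobp, C4a, marker genes and the label checks Rpe65, Xist and Eif2s3y. The 10 most alike profiles passed over Gm, Rik and sex-linked symbols. Hmgxb3 was named after its values were seen. Listed genes that are not in the count table were not analysed here. One microglia marker is not reported here and was left out of its lists.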

Additional observations from a re-analysis of the deposited data

Results flagged for a closer look

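Vehicle F2 stood apart from its group for C1qa. It had 3.49 CPM, while the other vehicle libraries had 7.44 to 7.83 CPM, a gap of 0.910 of the whole range of the group, beyond the critical value for 4 samples. This was the only one of the 10 genes and 3 groups for which a library stood out this far, and chance alone flags about 1 group in 20. This is the library whose sex label did not match its Xist and Eif2s3y counts; whether the 2 are connected was not tested.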

How the results depend on the processing

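In vehicle vs WT, 7 of the 10 genes and 5697 of all genes were called. Fits of only the 2 groups called 4 and 2861, the GC trend removed 1 and 3237, and leaving out WT F4 and vehicle F2 together 8 and 9521; leaving out single libraries gave 2 to 8 and 2849 to 9508. In TMB vs WT, 0 and 1600 were called, against 1 with limma-trend (C4b), 1053 of all genes with only the 2 groups, 1 and 2642 with the GC trend removed, 7 and 6665 without WT F4 and vehicle F2, and 0 to 5 and 896 to 6490 with single libraries left out. In TMB vs vehicle, 0 and 0 were called, against 58 genes with DESeq2, 2 without a filter, 2402 with only the 2 groups, 2 with the GC trend removed, 2 and 3436 without both libraries, and 0 to 2741 of all genes with single libraries left out (2741 without WT F4, with 0 of the 10). Apart from fewer or other libraries entering the fit, the cause was not tested. Library numbers did not pair the samples (correlations of deviations between libraries of 1 number -0.17 to 0.25). With the replicate block 3 of the 10 and 2224 of all genes were called in vehicle vs WT and 0 and 567 in TMB vs WT; the replicate block with the GC trend removed gave 1 and 2324 in vehicle vs WT, 1 (C4b) in TMB vs WT and 4 of all genes in TMB vs vehicle.

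No log2 change in vehicle vs WT turned its sign under any of the 25 alternatives. Sign changes were found in the other comparisons, among genes that were not called. In TMB vs WT, C1qa (main value 0.36) was -0.015 with the block and GC trend removed. In TMB vs vehicle, Trem2 (main value -0.03) was 0.17 with the replicate block, 0.018 with the GC trend removed, 0.22 with both, and -0.24 to 0.11 with single libraries left out (0.11 without vehicle M4, 0.044 without TMB F1 and 0.11 without TMB M6). Cx3cr1 (0.01) was -0.017 with limma-trend, -0.040 without WT F4 and vehicle F2, and -0.074 to 0.11 with single libraries left out (-0.040 without vehicle F2, -0.066 without TMB F1, -0.074 without TMB F4 and -0.0093 without TMB M6). Aif1 (0.30) was -0.041 to 0.60 with single libraries left out (-0.041 without TMB F1), C1qb (-0.24) 0.0090 with the GC trend removed and Csf1r (-0.30) 0.031 with block and GC. Scaling by total counts moved the median log2 change of all genes in vehicle vs WT to 0.11, beside a median of 1.02 for the 10 genes, against 0.02 and 0.93 with TMM. Low counts limit Aif1, Trem2 and Tmem119 most.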
